A study of Mus musculus with 15 samples.

Results

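The genes described here are 10 effector cytokines and ligands of the tumour necrosis factor (TNF) family that a T cell can make: Ifng, Tnf, Lta, Ltb, Csf2, Tnfsf8, Tnfsf11, Tnfsf14, Il16 and Tgfb1. They were taken by name from the 17493 genes of the deposited tables. Of the 10 genes, 9 passed the filter on low counts that left 10831 genes for testing, and Csf2 did not. The genes were read in 15 bulk libraries from mouse CD8+ OT-I T cells of female animals of the strain OT-1 C57BL/6-Tg(TcraTcrb)1100Mjb/Crl, whose age the labels do not give. All groups carry the same transgenic T cell receptor, which binds an ovalbumin peptide on MHC class I, so they stand for a single receptor specificity. The unstimulated group was taken at 0 h without treatment. The IF groups received immunofilaments, labelled IF-pMHC(SIIT)/IL-2, at 5 ng/ml for 8 h or 22 h, and thus had interleukin-2 on the stimulus itself. The DC groups received 20000 Flt-3Ligand dendritic cells per well, loaded with SIITFEKL, for 8 h or 22 h. Stimulated wells held 50000 T cells, and live CD8+ CD103- cells were sorted before RNA extraction. There is no culture without stimulus at 8 h or 22 h, so time in culture and stimulation cannot be told apart in any comparison with the unstimulated group. Each group has 3 libraries. The labels call them Don1 to Don3 without saying what the number marks, so p-values measure the spread between these libraries.

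CD8+ T cells act on other cells through granule killing and through secreted or membrane-bound cytokines. Interferon gamma (Ifng) and TNF (Tnf) are the classical effector cytokines, made in bursts when the receptor is engaged. Lymphotoxin alpha (Lta) is secreted alone or held at the membrane by lymphotoxin beta (Ltb), which resting lymphocytes make steadily. GM-CSF (Csf2) acts on myeloid cells. Tnfsf8 (CD30 ligand), Tnfsf11 (RANKL) and Tnfsf14 (LIGHT) are membrane ligands of the TNF family. Interleukin 16 (Il16) is made as a precursor that lymphocytes store, and transforming growth factor beta 1 (Tgfb1) is a latent suppressive cytokine. Transcripts of several of these genes are short-lived, because AU-rich elements in the 3′ untranslated region (UTR) recruit decay proteins such as tristetraprolin (Zfp36).

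The decay element and the start-site sequences are shown because such elements are known for some cytokine transcripts and not others. In the GENCODE vM21 annotation of GRCm38, the nonamer TTATTTATT was present in the longest annotated 3′ UTR of 3 of the 10 genes. Overlapping matches were counted, and Tnf had 5, Csf2 had 4 and Lta had 1. The same nonamer was present in 8.06% of 14978 genes with an annotated 3′ UTR. A match is a description of the letters and shows no binding. The first match of each gene is in capitals, with 10 bases on either side.
Tnf site: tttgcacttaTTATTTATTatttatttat
Lta site: aaaagttaagTTATTTATTtatagagaat
Csf2 site: ttttaaatatTTATTTATTtatttattta

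The Ifng 3′ UTR, of 631 bases, held the shorter pentamer ATTTA 6 times and the nonamer 0 times. Neither word occurred in the 3′ UTRs of Ltb and Il16.

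Ltb, Tnf and Lta are neighbours on chromosome 17, where the 3 genes span 10913 bases. Ltb lies on the plus strand at chr17:35194439-35196320, Tnf on the minus strand at chr17:35199381-35202007 and Lta on the minus strand at chr17:35203165-35205351. Tnfsf14 is on the same chromosome at chr17:57189492-57194177, minus strand. The other genes are Ifng (chr10:118441046-118445892, plus), Csf2 (chr11:54247271-54249667, minus), Tnfsf8 (chr4:63831308-63861347, minus), Tnfsf11 (chr14:78277445-78308043, minus), Il16 (chr7:83642825-83745726, minus) and Tgfb1 (chr7:25687002-25705077, plus). All 10 positions are whole genes in GRCm38. Some exons overlap another gene: Ifng shares 336 bases with Gm49751 on its own strand, Csf2 shares 96 with an antisense gene, and Il16 shares 1202 with Stard5 and 166 with 2310044K18Rik, both on the opposite strand. Whether strand was used in counting is not given in the sources used here, so the values of these 3 genes are uncertain to that extent.

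RefSeq windows (build GRCm38.p6) from 250 bases before to 50 bases after the start matched all 10 genes, with 12 windows because Il16 has 3. Printed here are the windows of Tnf, Lta and Tnfsf14, whose values moved together between replicates, and of Ltb, which moved the other way. Capitals mark a kappa B match (GGG, any 2 bases, then TTTCC, on either strand) or an AP-1 match (TGANTCA on either strand).
Tnf promoter, chr17:35201958-35202257, minus strand: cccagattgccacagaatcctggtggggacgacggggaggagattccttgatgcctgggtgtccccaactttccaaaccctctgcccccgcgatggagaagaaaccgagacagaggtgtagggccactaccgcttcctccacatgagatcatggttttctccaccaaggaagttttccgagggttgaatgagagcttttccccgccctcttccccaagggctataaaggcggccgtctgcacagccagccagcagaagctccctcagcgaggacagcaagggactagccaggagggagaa
Lta promoter, chr17:35205302-35205601, minus strand: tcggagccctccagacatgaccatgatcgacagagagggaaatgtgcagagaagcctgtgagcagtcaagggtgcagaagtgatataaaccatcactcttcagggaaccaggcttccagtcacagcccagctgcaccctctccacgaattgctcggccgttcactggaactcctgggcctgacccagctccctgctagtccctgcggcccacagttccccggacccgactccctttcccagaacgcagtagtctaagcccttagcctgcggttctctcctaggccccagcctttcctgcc
Tnfsf14 promoter, chr17:57194132-57194431, minus strand: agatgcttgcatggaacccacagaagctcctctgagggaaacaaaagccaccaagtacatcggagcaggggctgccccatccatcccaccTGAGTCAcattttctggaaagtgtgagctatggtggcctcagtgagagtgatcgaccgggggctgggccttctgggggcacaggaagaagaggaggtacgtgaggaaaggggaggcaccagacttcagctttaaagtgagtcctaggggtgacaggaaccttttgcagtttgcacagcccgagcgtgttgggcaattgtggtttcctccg
Ltb promoter, chr17:35194257-35194556, plus strand: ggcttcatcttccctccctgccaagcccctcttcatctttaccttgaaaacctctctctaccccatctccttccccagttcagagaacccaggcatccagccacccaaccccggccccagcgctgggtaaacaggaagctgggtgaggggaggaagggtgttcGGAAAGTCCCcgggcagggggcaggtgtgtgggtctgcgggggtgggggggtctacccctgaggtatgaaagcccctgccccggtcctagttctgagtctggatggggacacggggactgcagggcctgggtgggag

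The Ltb window holds a kappa B match that starts 87 bases before the start site, and 1 of the 3 Il16 windows holds another. The motif is in 1.63% of 32851 windows of the same length. AP-1 matches are in the windows of Tnfsf14 and Il16, against 7.81% of all windows. The NFAT core TGGAAA (either strand, not capitalised) is in those of Tnf, Tnfsf14, Csf2 and Il16, against 21.4% of all windows. In the windows of Tnf and Lta neither capitalised motif is found.

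Library totals ran from 2892874 to 19806730 counts, so that 3 counts, the floor used for detection, were worth 0.153 to 0.995 CPM (normalised read counts, scaled to library totals with TMM factors). The 7 CD8 T cell markers (such as Cd3e and Cd8a) were present in all groups, with summed levels of 7869 to 8544 CPM in unstimulated cells and 3681 to 5868 CPM across the stimulated groups. Of 16 dendritic cell markers, the summed level was 646.3 to 1536 CPM in unstimulated cells and 211.8 to 466.8 CPM at IF 8 h. It was 849.9 to 1236 CPM at DC 8 h, 373.6 to 628.6 CPM at IF 22 h and 470.5 to 638.4 CPM at DC 22 h. Zbtb46, a marker of classical dendritic cells, was at 0 in all unstimulated and IF 8 h libraries, as were Ccl17 in the former and Batf3 in the latter. At 8 h this summed level was higher with DC than with IF in every library. Marker by marker, 11 of 16 lay higher and 1 lower with DC than with IF after 8 h without overlap, and 4 higher and 1 lower after 22 h (13.5% and 19.9% of all genes tested did not overlap). Fscn1 and Ccl22, markers of mature dendritic cells picked out after their values were seen, were among the higher ones at both times. Fscn1 was 0, 0.181 and 6.75 CPM in unstimulated cells, 168, 132 and 126 CPM at DC 8 h against 0.535, 0.663 and 0.268 CPM with IF, and 94.8, 87.6 and 72.9 CPM at DC 22 h against 5.83, 21.5 and 43.8 CPM with IF. Ccl22 was 18.2, 14.4 and 10.3 CPM at DC 8 h and 10.1, 11.1 and 6.41 CPM at DC 22 h, and at most 2.98 CPM in any other library. Against unstimulated cells the list went both ways without overlap: 4 of 16 markers lay higher (Fscn1, Ccl22, Flt3 and Zbtb46) and 4 lower (Cst3, H2-Ab1, Itgax and Xcr1) at DC 8 h, and at DC 22 h the same 4 lay higher and 5 lower (Clec9a in addition), against 28.2% and 27.1% of all genes tested. The part of these transcripts in the differences between groups, those of IF from unstimulated cells included, was not tested. Some libraries differed from the rest. In replicate 2 of both DC groups, 6 genes (Lif, Zbtb32, Serpine2, Iigp1, Hic1 and Ly6a) were over 2-fold above all 13 other libraries. Among all 105 pairs of libraries the number of such genes reached 14. These pairs include libraries of the same group, so the number cannot decide whether the DC pair stands apart. The pair is left out below because of its Ifng, Tnf and Lta values. Values of these genes without it are therefore descriptions and no evidence of a difference. In replicates 2 and 3 of IF 22 h, 127 genes were over 2-fold below all other libraries, and mitochondrial ribosomal RNA was 0.179% and 0.146% of counts. Neither set held any of the 10 genes. In bulk RNA, fewer cells of a type and less RNA per cell cannot be told apart.

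None of the 9 tested genes passed an adjusted p of 0.05 in any comparison (edgeR quasi-likelihood test, Benjamini-Hochberg over all genes tested). Over 11 comparisons this makes 99 tests, of which 0 passed, 15 had an unadjusted p under 0.05, and the smallest adjusted p was 0.0574. The stimuli did change the cells: against unstimulated cells, edgeR called 7.76% of all tested genes with IF and 6.82% with DC after 8 h, and 6.08% with IF and 7.76% with DC after 22 h. Shares this low would give fewer than 1 call among 9 genes, so a count of 0 does not set the cytokine genes apart from other genes. At an unadjusted p under 0.05 the counts were 1, 2, 1 and 3 of 9 in the same order, against 22.9%, 20.9%, 20.5% and 22.2% of all genes. DESeq2 called 0, 1, 0 and 1 of 9. At 8 h it called more genes in all than edgeR, 1269 of 10831 with IF (edgeR 840) and 1175 with DC (edgeR 739). A call of 1 of 9 at DC 8 h is near that background. The DESeq2 totals of the other comparisons are not given here. The genes that came closest were Lta after 8 h with DC, Tnfsf8 after 22 h with DC, and Tgfb1, which was lower in every stimulated library.

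**Figure D1:**
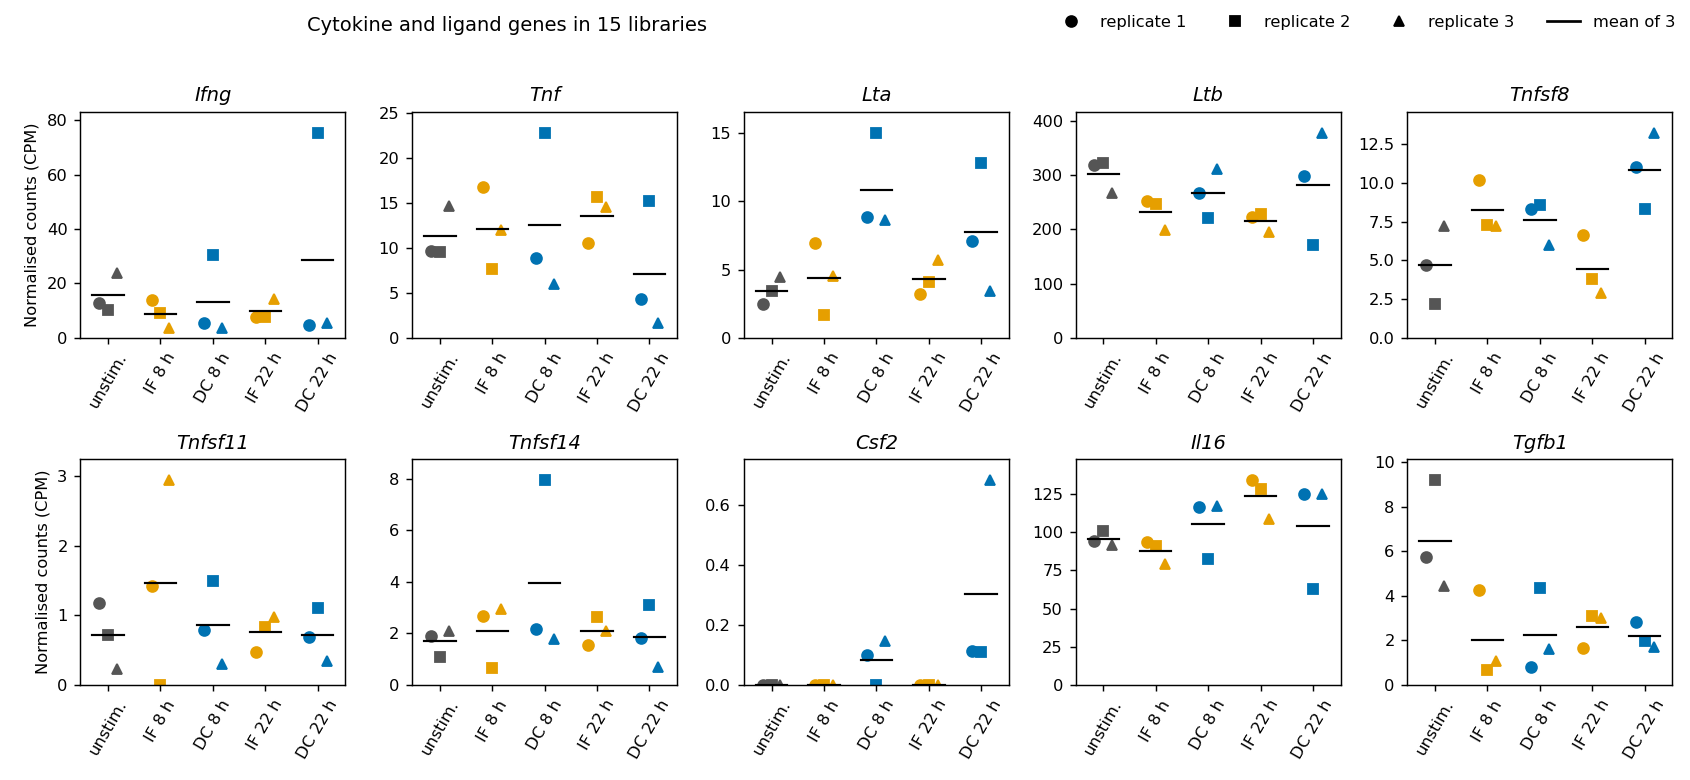
Normalised counts (CPM, linear axis from 0, a separate scale for each gene) of the 10 genes in the 15 libraries, by group. Each symbol is a library, its shape the replicate number, and the bar the mean of 3; Ifng reaches 75.4 CPM in a single DC 22 h library, and the 3 unstimulated libraries of Tgfb1 lie above all 12 stimulated ones.

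Ifng was low and uneven. In unstimulated cells it stood at 12.9, 10.3 and 23.7 CPM in replicates 1, 2 and 3. With IF it stood at 13.7, 8.95 and 3.48 CPM after 8 h and at 7.50, 7.77 and 14.2 CPM after 22 h. With DC it stood at 5.45, 30.4 and 3.67 CPM after 8 h and at 4.67, 75.4 and 5.47 CPM after 22 h. Replicate 2 was thus the high library of both DC groups, while the other DC libraries lay below every unstimulated one. The log2 fold change at DC 22 h was 0.87 ± 0.89 (SE, n = 3 libraries a group, edgeR adjusted p = 0.608), with a 95% interval from -1.01 to 2.75. Without replicate 2 of both DC groups it was -1.59 ± 0.52, and at DC 8 h it was -1.76 ± 0.53. With all libraries the DC 8 h value was -0.24 ± 0.90 (edgeR adjusted p = 0.921). IF gave -0.81 ± 0.94 at 8 h and -0.64 ± 0.90 at 22 h (edgeR adjusted p = 0.663 and 0.748). Without unstimulated replicate 3 these were -0.39 and -0.22, and leaving out single libraries took them as far as -1.35, when IF 8 h replicate 1 was dropped, and -1.02, when replicate 3 of IF 22 h was. The groups overlapped in every comparison, and in the order of the 5 means (DC 22 h, unstimulated, DC 8 h, IF 22 h, IF 8 h) all neighbours overlapped.

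Tnf was present in all 15 libraries, at 9.69, 9.58 and 14.7 CPM in unstimulated cells. It measured 16.8, 7.63 and 12.1 CPM at IF 8 h and 10.6, 15.7 and 14.6 CPM at IF 22 h. With DC it measured 8.91, 22.9 and 6.02 CPM at 8 h and 4.32, 15.3 and 1.62 CPM at 22 h. The 8 h groups overlapped the unstimulated group, and at DC 22 h replicates 1 and 3 lay below it while replicate 2 lay above it. The largest log2 change against unstimulated cells was -0.68 ± 0.61 at DC 22 h (SE, edgeR adjusted p = 0.548). Without DC 22 h replicate 2 it was -1.92 (edgeR adjusted p = 0.0613), and without DC 22 h replicate 3 it was -0.20 (edgeR adjusted p = 0.874). IF exceeded DC at 22 h by 0.96 ± 0.60 with all libraries (edgeR adjusted p = 0.495). That difference was 2.21 without DC 22 h replicate 2 (edgeR adjusted p = 0.0477) and 0.48 without DC 22 h replicate 3 (edgeR adjusted p = 0.725), so its size rests on which DC library is kept.

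Lta, the secreted lymphotoxin chain, was highest with DC. Unstimulated cells had 2.50, 3.43 and 4.42 CPM, IF 8 h had 6.96, 1.66 and 4.55 CPM, and IF 22 h had 3.21, 4.06 and 5.67 CPM. DC 8 h had 8.81, 15.03 and 8.66 CPM, and DC 22 h had 7.06, 12.8 and 3.42 CPM. All 3 DC 8 h libraries lay above all unstimulated and all IF libraries, and DC 22 h overlapped them through replicate 3. Against unstimulated cells the log2 fold change was 1.66 ± 0.52 at DC 8 h (SE, 95% interval 0.56 to 2.77, edgeR adjusted p = 0.0672). It was 1.18 ± 0.52 at DC 22 h (edgeR adjusted p = 0.192), 0.41 ± 0.54 at IF 8 h and 0.35 ± 0.52 at IF 22 h. The DC 8 h difference passed with DESeq2 (adjusted p = 0.0266), which called 1175 of 10831 genes there. Without replicate 2 of both DC groups the difference was 1.35 ± 0.53. At DC 22 h it was then 0.63 ± 0.54. Beside it, 4 dendritic cell markers lay above and 4 below unstimulated cells at DC 8 h, and their part in the Lta values was not tested.

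Ltb, the membrane anchor of lymphotoxin, was counted deeply. It measured 320, 323 and 267 CPM in unstimulated cells, 252, 247 and 198 CPM at IF 8 h, and 223, 228 and 196 CPM at IF 22 h. DC 8 h gave 267, 222 and 311 CPM and DC 22 h gave 299, 171 and 379 CPM. Every IF library lay below every unstimulated one, while DC libraries overlapped both. The log2 fold change was -0.38 ± 0.23 at IF 8 h and -0.49 ± 0.23 at IF 22 h (SE, edgeR adjusted p = 0.335 and 0.227). With DC it was -0.18 ± 0.23 and -0.10 ± 0.23 (edgeR adjusted p = 0.707 and 0.845), and the sign at 22 h turned without DC 22 h replicate 2 (0.18). The 95% intervals of these 4 changes lay between -0.97 and 0.38. Summed dendritic cell markers were also lower in all IF libraries (at most 628.6 CPM) than in unstimulated ones (at least 646.3 CPM). At DC 22 h they were lower as well (at most 638.4 CPM). Their part in the Ltb values was not tested. IF minus DC at 22 h was -0.39 ± 0.23 for Ltb with all libraries (edgeR adjusted p = 0.439). It was -0.66 without DC 22 h replicate 2 (edgeR adjusted p = 0.0641) and -0.12 without DC 22 h replicate 3 (edgeR adjusted p = 0.849).

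Tnfsf8, the ligand of CD30, was the gene whose IF and DC libraries did not overlap at 22 h. Unstimulated cells had 4.70, 2.17 and 7.22 CPM. After 8 h IF gave 10.2, 7.29 and 7.23 CPM and DC gave 8.32, 8.57 and 6.02 CPM. After 22 h IF gave 6.67, 3.82 and 2.91 CPM, and DC gave 11.0, 8.30 and 13.2 CPM. Every DC 22 h library lay above every unstimulated and every IF 22 h library, and IF 22 h lay below IF 8 h without overlap. The log2 fold change at DC 22 h against unstimulated cells was 1.22 ± 0.42 (SE, 95% interval 0.34 to 2.11, edgeR adjusted p = 0.0892). IF minus DC at 22 h was -1.30 ± 0.41 (95% interval -2.16 to -0.43, edgeR adjusted p = 0.115). With DESeq2 both passed, at adjusted p = 0.047 and 0.0432. Of the 16 dendritic cell markers, 4 lay above and 1 below IF at 22 h, and 4 above and 5 below unstimulated cells, and their part was not tested. The change of the IF-DC difference from 8 h to 22 h was -1.41 ± 0.58 (edgeR adjusted p = 0.562). Without replicates 2 and 3 of IF 22 h, which leaves 1 library there, IF minus DC at 22 h was -0.71 ± 0.57 (edgeR adjusted p = 0.975).

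Tnfsf14 was low, with 282 counts in all and 14 libraries above 3 counts, and Tnfsf11 sat near the detection floor. Tnfsf14, which binds HVEM and the lymphotoxin beta receptor, had 1.91, 1.08 and 2.09 CPM in unstimulated cells, 2.68, 0.663 and 2.95 CPM at IF 8 h, and 1.55, 2.63 and 2.09 CPM at IF 22 h. DC 8 h had 2.18, 7.95 and 1.76 CPM, and DC 22 h had 1.82, 3.10 and 0.684 CPM. Replicate 2 was again the highest library of both DC groups, and all groups overlapped. The largest log2 change of Tnfsf14 against unstimulated cells was 1.22 ± 0.74 at DC 8 h (SE, edgeR adjusted p = 0.371). Tnfsf11, known as RANKL and required for osteoclast formation, ranged from 0 to 2.95 CPM, with 104 counts in all 15 libraries together, and 12 libraries were above 3 counts. Its 95% intervals against unstimulated cells ran from -1.22 to 3.23 at IF 8 h, -1.96 to 2.43 at DC 8 h, -2.11 to 2.25 at IF 22 h and -2.22 to 2.11 at DC 22 h on the log2 scale. They include the spread between libraries, and a 4-fold rise lies inside all of them.

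Csf2 was left out of the main test by the filter on low counts. It had 0 counts in all 3 unstimulated and all 6 IF libraries, and 12 counts in 5 of 6 DC libraries. DC 8 h had 1, 0 and 1 counts and DC 22 h had 1, 1 and 8. The 8 counts in replicate 3 are 0.684 CPM, with an exact Poisson 95% interval from 0.295 to 1.35 CPM that covers counting error only. In IF 22 h, the floor of 3 counts was 0.153 to 0.359 CPM. With no filter on low counts, the edgeR adjusted p of Csf2 was 0.43 both for IF against DC at 22 h and for DC 22 h against unstimulated cells. Among the receptor genes, Csf2rb2, a beta chain related to the GM-CSF receptor chain, was 0.147, 0 and 0.233 CPM in unstimulated cells, 8.02, 5.09 and 3.23 CPM at DC 8 h and 3.87, 3.54 and 3.67 CPM at DC 22 h. It passed the threshold in both (edgeR adjusted p = 0.00293 and 0.00591). With IF, Csf2rb2 was 0.178, 2.32 and 1.34 CPM after 8 h and 0.476, 1.55 and 1.43 CPM after 22 h (edgeR adjusted p = 0.0833 and 0.0789 against unstimulated cells). The difference of Csf2rb2 between IF and DC did not pass at 8 h or 22 h (edgeR adjusted p = 0.341 and 0.259). Against unstimulated cells 4 of the 16 dendritic cell markers lay above and 4 below at DC 8 h, and 4 above and 5 below at DC 22 h, and their part in these values was not tested.

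Il16 lay between 62.7 and 135 CPM. Unstimulated cells gave 94.4, 101 and 91.9 CPM, IF 8 h gave 93.8, 90.8 and 79.6 CPM, and IF 22 h gave 135, 129 and 109 CPM. DC 8 h gave 117, 82.2 and 117 CPM, and DC 22 h gave 125, 62.7 and 125 CPM. The IF 22 h libraries lay above all IF 8 h and unstimulated ones, and replicate 2 was the low library of both DC groups. IF 22 h exceeded IF 8 h by a log2 of 0.49 ± 0.23 (SE, edgeR adjusted p = 0.323), and with only replicate 1 of IF 22 h by 0.61 ± 0.32 (adjusted p = 0.91). Against unstimulated cells the 4 changes lay between -0.12 and 0.37, with 95% intervals between -0.60 and 0.85. The value at DC 22 h, 0.12, had no stable sign: it was -0.0228 without DC 22 h replicate 1, -0.0286 without replicate 3 and 0.41 without replicate 2.

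Tgfb1 was the cytokine that every stimulated library held at a lower level. Unstimulated cells had 5.72, 9.22 and 4.42 CPM. IF 8 h had 4.28, 0.663 and 1.07 CPM, and IF 22 h had 1.67, 3.11 and 3.01 CPM. DC 8 h had 0.792, 4.35 and 1.62 CPM, and DC 22 h had 2.85, 1.99 and 1.71 CPM. The lowest unstimulated library stands only just above the highest stimulated one. Log2 fold changes were -1.60 ± 0.70, -1.52 ± 0.68, -1.31 ± 0.67 and -1.57 ± 0.68 at IF 8 h, DC 8 h, IF 22 h and DC 22 h (SE, edgeR adjusted p = 0.182, 0.208, 0.286 and 0.18). Single libraries moved these values, to -2.87 without IF 8 h replicate 1 (edgeR adjusted p = 0.0646) and to -2.44 without DC 8 h replicate 2 (edgeR adjusted p = 0.096). These 4 comparisons share the same 3 control libraries. The mean of the 4 stimulated groups was compared with the unstimulated group after these values had been seen, and gave -1.50 ± 0.49 (edgeR adjusted p = 0.0574, DESeq2 adjusted p = 0.0367). In that comparison edgeR called 0 of 9 genes and 11.3% of all genes. An unadjusted p under 0.05 was found for 1 of 9 and for 25.4% of all genes, and no overlap between unstimulated and stimulated libraries for 1 of 9 and for 8.16% of all genes. Without replicate 2 of both DC groups the mean change was -1.71 ± 0.48 (edgeR adjusted p = 0.0266). Of 15 fits that each left out 1 library, 2 passed, those without IF 8 h replicate 1 (edgeR adjusted p = 0.0193) and without DC 8 h replicate 2 (edgeR adjusted p = 0.0231). The weakest was without unstimulated replicate 2, at -1.15 (edgeR adjusted p = 0.314). The dendritic cell markers Cst3, H2-Ab1 and Xcr1 were also lower in every stimulated library, while the other markers overlapped. Unstimulated libraries had at least 174, 137 and 9.54 CPM of them, and stimulated ones at most 169, 117 and 9.38 CPM. Their part in the Tgfb1 values was not tested.

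**Figure D2:**
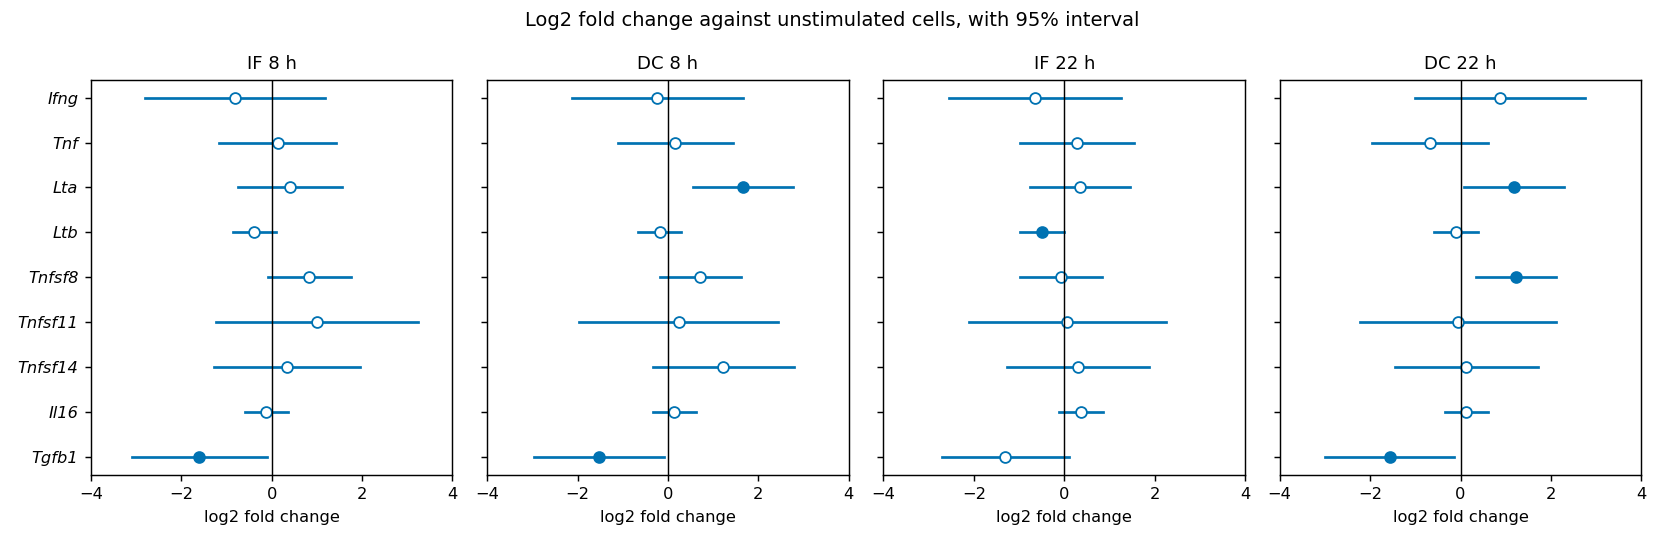
Log2 fold change of the 9 tested genes in each stimulated group against unstimulated cells, from the edgeR fit over 15 libraries. Points are estimates, lines are 95% intervals, filled points have an unadjusted p under 0.05, and none passes the adjusted threshold; Tgfb1 lies below 0 in all 4 panels and Lta is highest at DC 8 h.

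Against unstimulated cells, groups did not overlap for 3 of 9 genes with IF and 2 with DC after 8 h, and for 3 with IF and 2 with DC after 22 h. In the same order, 30.6%, 28.2%, 30.4% and 27.1% of all genes did not overlap, so these counts are near the background. They were Ltb and Tgfb1 (lower) and Tnfsf8 (higher) at IF 8 h, Lta (higher) and Tgfb1 (lower) at DC 8 h, Ltb and Tgfb1 (lower) and Il16 (higher) at IF 22 h, and Tnfsf8 (higher) and Tgfb1 (lower) at DC 22 h.

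Between the stimuli, edgeR called 0 of 9 at 8 h and 0 of 9 at 22 h, against 0.665% and 2.43% of all genes. With an unadjusted p under 0.05 there was 1 gene each, Lta at 8 h and Tnfsf8 at 22 h, against 8.27% and 15.3% of all genes. DESeq2 called 0 and 1. The same 2 genes did not overlap between the stimuli, against 13.5% and 19.9% of all genes. Lta was lower with IF than with DC at 8 h by a log2 of -1.25 ± 0.52 (edgeR adjusted p = 0.499), and without replicate 2 of both DC groups by -0.94 ± 0.53. Ifng differed by -1.52 ± 0.89 at 22 h with all libraries (edgeR adjusted p = 0.453) and by 0.95 ± 0.50 without replicate 2 of both DC groups, so the sign rests on those libraries.

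Between 8 h and 22 h, edgeR called 0 of 9 with IF and 0 of 9 with DC, against 1.12% and 0.48% of all genes. The unadjusted counts were 2 (Tnfsf8 lower and Il16 higher with IF at 22 h) and 0, against 15% and 9.03% of all genes, and DESeq2 called 0 and 0. Groups did not overlap for 2 genes (Tnfsf8 and Il16) with IF and for 0 with DC, against 21.5% and 13.9% of all genes. With DC, Tnf, Lta and Tnfsf14 were lower at 22 h than at 8 h in all 3 same-numbered pairs, 3 of 9 genes against 19.4% of all genes, and 0 of 9 were higher in all 3 pairs against 18.1%. The numbers were taken to pair libraries in this comparison, as a hint from the data that the labels do not give. A fit of the DC groups alone with the number as a block, added after seeing the data, called 0 of 8 genes and 166 of 10182 genes in all. In that fit the log2 difference of Tnf was -1.11 ± 0.33 (edgeR adjusted p = 0.135), and Lta and Tnfsf14 stood at -0.61 and -0.99 (edgeR adjusted p = 0.407 and 0.441). The change of the IF-DC difference over time was called for 0 of 9 genes and for 0% of all genes, with 1 of 9 (Tnfsf8) at an unadjusted p under 0.05, against 7.92% of all genes, and 0 with DESeq2. The test for any difference over the 5 groups called 0 of 9 against 11.8% of all genes, with 2 of 9 unadjusted (Lta and Tnfsf8) against 26.6%, and DESeq2 called both of these.

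**Figure D3:**
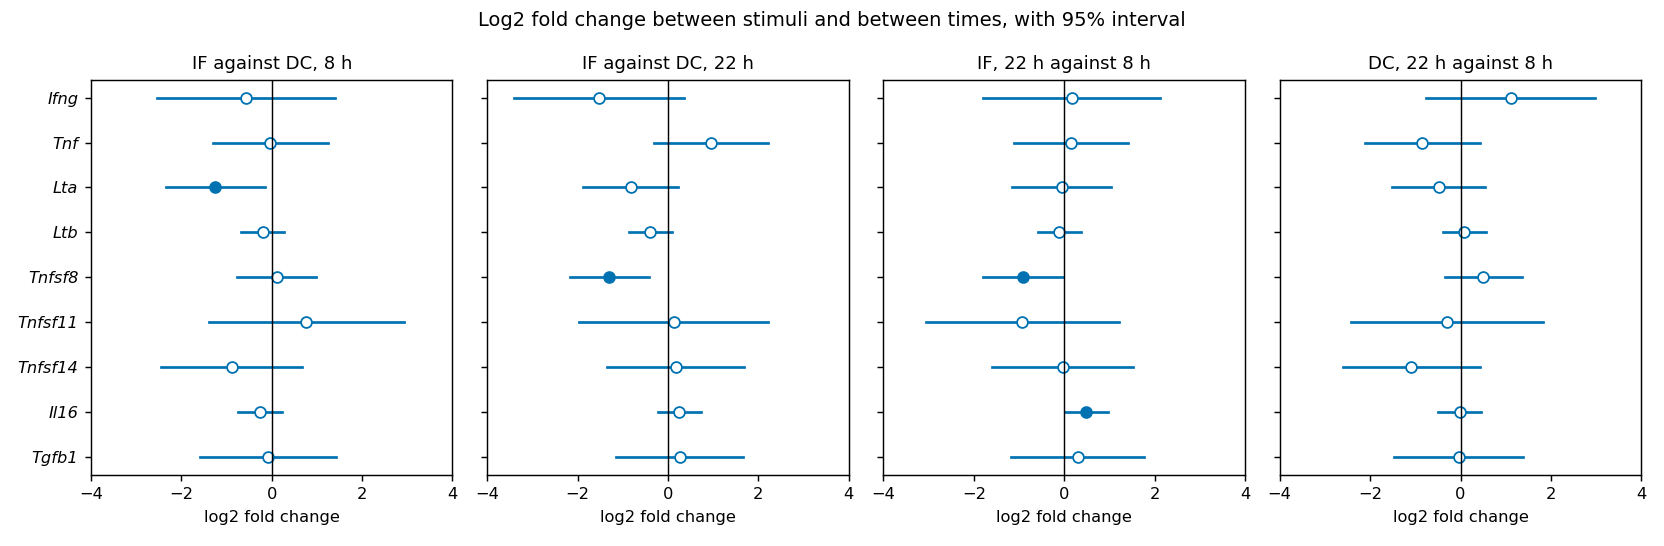
Log2 fold change of the 9 tested genes between IF and DC at each time and between 22 h and 8 h with each stimulus. Points are estimates with 95% intervals, filled where the unadjusted p is under 0.05; Lta at 8 h and Tnfsf8 at 22 h lie below 0 (lower with IF), and none passes the adjusted threshold.

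The 9 genes differed in how far replicates of a group lay apart. The SD of log2 CPM within groups was 1.34 for Ifng, which placed it at percentile 97.2 of all tested genes and at 99.5 among 3558 genes within 2-fold of its level. The largest Ifng deviations were those of replicate 2 at DC 8 h (1.8) and DC 22 h (2.56), and the SD without these libraries is not given here. Tnf had 0.871 (percentile 85.2, and 94.5 among 3254 genes of like level). Lta had 0.679 (percentile 77, and 70.4 among 2541 genes of like level). Ltb and Il16 had 0.310 and 0.304, at percentiles 34.7 and 33.3 of all genes, but at 71.7 among 833 and at 68 among 1991 genes of like level. At matched level, Lta, Ltb and Il16 thus ranked close together.

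Tnf, Lta and Tnfsf14 deviated together. Across the 15 libraries, deviations from the group mean gave a Pearson r of 0.858 for Tnf with Lta, 0.869 for Tnf with Tnfsf14 and 0.834 for Lta with Tnfsf14. Without replicate 2 of both DC groups the values were 0.856, 0.843 and 0.81. Tnfsf11 went the same way, at 0.758 with Tnfsf14, 0.649 with Lta and 0.519 with Tnf (0.761, 0.602 and 0.469 without those 2 libraries). Ifng moved with Tnf at r = 0.84, but at 0.299 without those 2 libraries. Ltb and Il16 moved together (0.929, and 0.69 without them) and Ltb moved against Tnf (-0.88, and -0.596 without them). Ifng with Il16 was -0.846 with all libraries and 0.0124 without those 2. These correlations describe libraries that share depth and scaling, and 36 pairs of genes were looked at. The smallest library, IF 8 h replicate 2, held only 5, 2 and 0 counts of Lta, Tnfsf14 and Tnfsf11. Among 15 libraries, replicate 2 of DC 8 h ranked first for Tnf, Lta and Tnfsf14, and replicate 2 of DC 22 h ranked first for Ifng and last for Ltb and Il16.

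**Figure D4:**
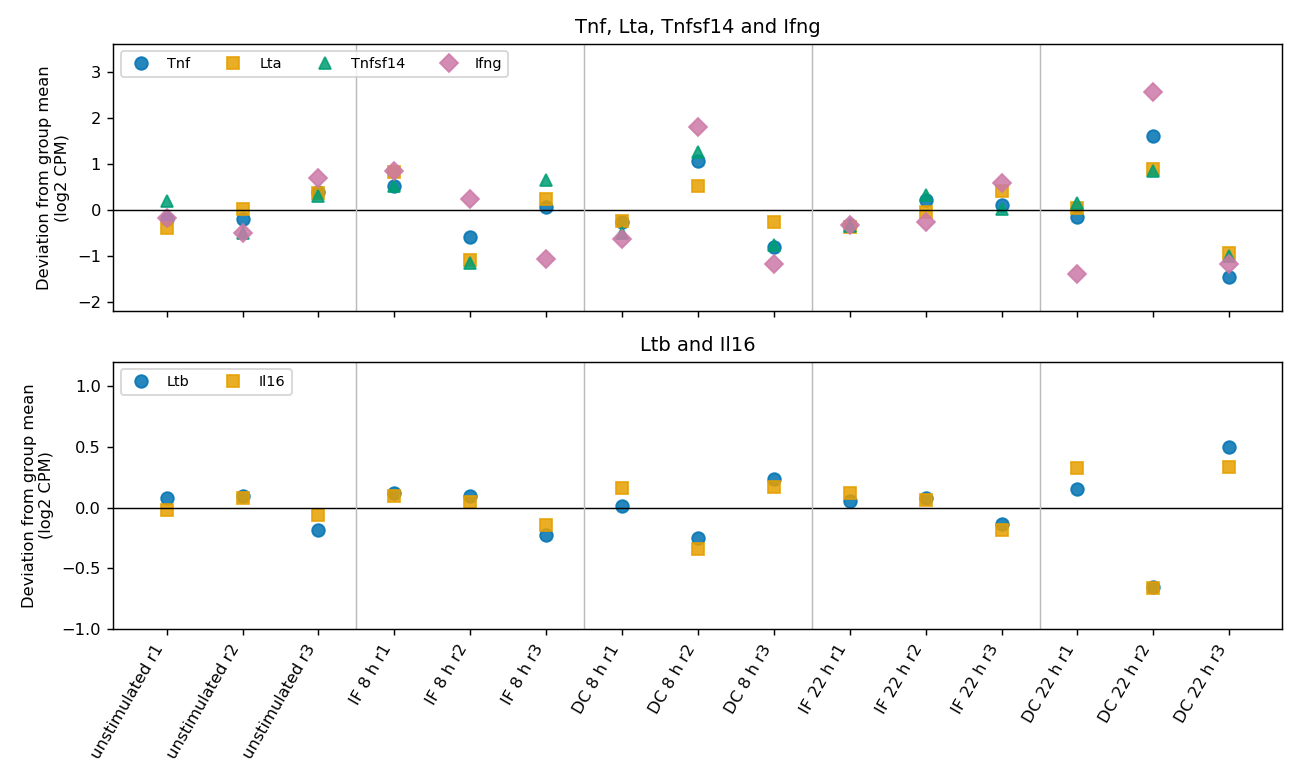
Deviation of log2 CPM from the mean of the group in each of the 15 libraries (r is the replicate number), for Tnf, Lta, Tnfsf14 and Ifng above and for Ltb and Il16 below, on different vertical scales. Grey lines part the groups; the upper genes are high and the lower genes low in replicate 2 of DC 8 h and DC 22 h.

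Genes that act on cytokine transcripts or beside the cytokines were counted by list. Of 11 factors of cytokine mRNA decay, all tested, edgeR called 1 higher and 2 lower at IF 8 h, DC 8 h and DC 22 h, and 2 higher and 1 lower at IF 22 h. Of all genes, 7.76%, 6.82%, 7.76% and 6.08% were called in these 4 comparisons. The median log2 change of the 11 factors against unstimulated cells was between 0.19 and 0.43, against 0.01 to 0.04 over all genes tested. Zfp36, the AU-rich element binding protein tristetraprolin, fell in all 4 groups, from a mean of 131.4 CPM in unstimulated cells to 36.1, 37.5, 45.6 and 40.1 CPM (IF 8 h, DC 8 h, IF 22 h, DC 22 h), with edgeR adjusted p between 0.000394 and 0.00185. Zc3h12d, a ribonuclease of the regnase family, rose from a mean of 9.47 CPM to 54.5, 52.8, 46.1 and 36.7 CPM (largest edgeR adjusted p = 0.000959).

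Of 22 transcription factors of cytokine genes, 21 were tested. Against unstimulated cells edgeR called 5 higher and 3 lower after 8 h with IF, and 3 higher and 5 lower with DC. After 22 h it called 4 higher and 4 lower with IF, and 0 higher and 6 lower with DC. Of all genes, 7.76% and 6.82% were called after 8 h and 6.08% and 7.76% after 22 h (IF and DC). The median log2 change of the list was 0.05 and 0.24 after 8 h and -0.28 and -0.13 after 22 h, against 0.01 to 0.04 over all genes tested. The AP-1 genes Fos, Jun and Junb fell in all 4. Fos went from a mean of 291.8 CPM to 5.23, 4.60, 3.04 and 1.29 CPM (IF 8 h, DC 8 h, IF 22 h, DC 22 h). Jun was lower with IF than with DC at 22 h, at 5.84 against 70.8 CPM (log2 difference -3.63 ± 0.47, edgeR adjusted p = 0.000491). The 3 IF 22 h libraries had 7.74, 5.74 and 4.03 CPM of Jun, so replicate 1, which did not stand apart, was low as well.

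Of 16 receptor genes of these ligands, 11 were tested, and at most 1 was called in each direction in a comparison of single groups, where 0.48% to 7.76% of all genes were called. Besides Csf2rb2, Tgfbr3 (betaglycan) fell at IF 8 h, by 1.46 ± 0.42 on the log2 scale (edgeR adjusted p = 0.0434). In the mean over the stimulated groups, a comparison added after values were seen, 2 of 11 were called, against 11.3% of all genes. The TNF receptor Tnfrsf1b rose there by a log2 of 0.81 ± 0.25 (edgeR adjusted p = 0.043), from 21.7 CPM to group means between 31.9 and 40.6 CPM. It passed in none of the stimulated groups alone (edgeR adjusted p between 0.0773 and 0.281).

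Of 12 other ligands of the TNF family, 3 were tested. At DC 8 h 2 were called, both lower, against 6.82% of all genes. Tnfsf10 (TRAIL) fell at DC 8 h, from 18.4 to 6.87 CPM (log2 change -1.42 ± 0.33, edgeR adjusted p = 0.0156). Cd40lg was also called lower there (edgeR adjusted p = 0.0416), at 1.47, 3.98 and 0.233 CPM in unstimulated cells and 0 in all 3 DC 8 h libraries. Of 29 other cytokines, 8 were tested, and 0 were called in comparisons of single groups, where 0.48% to 7.76% of all genes were called. Lif passed the test over 5 groups (edgeR adjusted p = 0.044), 1 of 8 against 11.8% of all genes. Lif had 1.98, 15.4 and 0.734 CPM at DC 8 h, 0.683, 29.5 and 0.0855 CPM at DC 22 h and 0 in all IF 22 h libraries. Like Ifng, it was highest in replicate 2 of both DC groups. Of 17 genes of cytokine processing and activation, 7 were tested and 1 was called, Itgav at IF 22 h, against 6.08% of all genes. Itgav, an integrin chain that can release active TGF-beta, rose there by a log2 of 1.25 ± 0.33 (edgeR adjusted p = 0.0316). It stood at 23.8, 33.6 and 32.7 CPM in the IF 22 h libraries.

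Target genes of interferon gamma were a list of 21, all tested. Against unstimulated cells edgeR called 6 higher and 0 lower at IF 8 h, at DC 8 h and at DC 22 h, and the other 15 did not pass in each (7.76%, 6.82% and 7.76% of all genes were called). At IF 22 h it called 0 higher and 4 lower, and 17 did not pass (6.08% of all genes). At 22 h, 9 were lower with IF than with DC and 0 were higher, against 2.43% of all genes. Replicates 2 and 3 of IF 22 h, which stand apart, were low in some of these genes and like replicate 1 in others, as 4 genes picked out after their values were seen show. Irgm1 was 10.7, 14.3 and 15.6 CPM in unstimulated cells and 10.8, 1.55 and 1.38 CPM at IF 22 h, and Gbp7 was 106, 39.1 and 23.9 CPM there. Psmb9 was 24.4, 25.8 and 24.3 CPM and Gbp4 was 68.8, 73 and 69.3 CPM there. Without those 2 libraries, the median log2 difference of the 21 genes between IF and DC at 22 h was -1.39, as with all libraries. Against unstimulated cells the IF 22 h median was -0.31. With the single library left, 0 of 21 were called in either comparison, and between IF and DC 8 genes in all were called in place of 263, so the lost calls do not show a smaller difference. Without replicate 2 of both DC groups, 4 were called higher at DC 8 h, 2 at DC 22 h, and 5 lower with IF than with DC at 22 h, with medians of 0.75, 0.55 and -0.96. In the same order 706, 700 and 346 genes in all were called, against 739, 840 and 263 with all libraries. The median log2 change of the 21 genes against unstimulated cells was 0.99 and 1.07 after 8 h and -0.57 and 1.06 after 22 h (IF and DC). Cxcl10, a chemokine gene, stood at 1.19, 0.956 and 0.766 CPM with IF and at 16, 85.3 and 14.3 CPM with DC after 22 h, without overlap. Its difference between IF and DC at 22 h was -5.34 ± 0.86 on the log2 scale (SE, edgeR adjusted p = 0.00249). The GTPase gene Gbp2 rose from 130.7 to 1123 CPM at IF 8 h and 1061 CPM at DC 8 h (edgeR adjusted p = 0.000833 and 0.00115), and its IF 22 h mean was 186 CPM. In Gbp2 too, DC replicate 2 was the highest library of its group, at 1980 CPM after 8 h and 894 CPM after 22 h. Several of these genes also answer to other interferons, and the source of the difference was not tested.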

How the data were processed

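Bulk CEL-seq RNA libraries (3 in each of 5 groups) were analysed from the deposited tables, 1 per library. Per the file contents, the deposited values are counts per gene, whole numbers without normalization. BWA and the mouse build mm10 are named in the submitters' processing notes, without their role. The counting program, annotation, use of strand and use of molecular identifiers are not given in the sources used here. The Poisson interval of Csf2 and the floors cover counting error only, while edgeR intervals include the spread between libraries.

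The 10 genes and the lists were chosen with earlier results of these data known. All 10 were named, and from each list at most 3 called genes a comparison with the smallest p. Counts were analysed with edgeR 4.0.16 and limma 3.58.1 in R 4.3.3: filterByExpr (minimum count 10, minimum total 15), TMM scaling, 1 quasi-likelihood fit of 5 group means to 15 libraries, two-sided tests, Benjamini-Hochberg adjustment over 10831 genes in each comparison, threshold 0.05. Genes left out held 0.065% to 0.124% of a library's counts. Fold changes use a prior count of 0.125 and deviations a prior count of 2. Alternatives were library scaling, low-count filters, DESeq2 1.42.0, fewer groups in the fit, thinned counts, the replicate number as a block and left-out libraries. Same-numbered DC 8 h and DC 22 h libraries deviated together from their group means (r = 0.116, 0.399 and 0.238), so the numbers were taken to pair those groups, as a hint from the data and not from the labels. Replicate 1 of DC 8 h had a like r with replicate 1 of IF 22 h (0.115), and those groups were not taken as paired. The test code was checked on simulated counts. Genes of like pattern were to be named for genes past the test over 5 groups, and 0 qualified. Marker lists of B cells, monocytes and macrophages, neutrophils, NK cells and CD4 T cells summed to at most 35.14, 3.22, 9.08, 13.4 and 10.3 CPM in any library.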

Additional observations from a re-analysis of the deposited data

Results flagged for a closer look

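The mean of Tnfsf8 was lower at 22 h than at 8 h with IF and higher with DC. Every IF 22 h library (2.91 to 6.67 CPM) lay below the mean of IF 8 h (8.23 CPM), while every DC 22 h library (8.30 to 13.2 CPM) lay above the mean of DC 8 h (7.64 CPM). The DC libraries of both times overlapped, and replicate 2 was lower at 22 h (8.30 against 8.57 CPM). DC 22 h against 8 h was 0.51 ± 0.40 on the log2 scale (edgeR adjusted p = 0.813), and 0.49 ± 0.32 with the numbers as pairs (edgeR adjusted p = 0.508). The difference between both changes was -1.39 in log2 CPM. In the edgeR fit it was -1.41 ± 0.58 (adjusted p = 0.562), so it did not pass the threshold.

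Il16 lay on opposite sides of the unstimulated mean (95.7 CPM) at the 2 times with IF. All 3 libraries were below it at 8 h (79.6 to 93.8 CPM) and all 3 above it at 22 h (109 to 135 CPM). The difference between these changes was -0.493 in log2 CPM, and IF 22 h against IF 8 h had an edgeR adjusted p of 0.323.

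Csf2 was left out of the tests by the filter on low counts, yet had 8 counts in DC 22 h replicate 3, above the floor of 3 counts, and 0 in every unstimulated library. The floor of the unstimulated libraries was 0.440 to 0.698 CPM, inside the Poisson 95% interval of that value (0.295 to 1.35 CPM). Over all DC libraries there were 12 counts in 51252730, against 0 in 48730055 with IF and 0 in 19264614 in unstimulated cells. With no filter, DC 22 h against unstimulated cells had an edgeR adjusted p of 0.43.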

How the results depend on the processing

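With all libraries and edgeR no tested gene passed in any comparison. With the replicate block the count was 0 in all 11 comparisons as well. Only DC 8 h and DC 22 h were taken as paired, where a fit of these groups alone with the replicate block called 0 of 8 genes and 166 genes in all, against 52 genes in the fit of all groups and 0 in the DC groups without the block. Elsewhere the numbers were not taken to pair libraries: same-numbered libraries had a median correlation of deviations of 0.00341 (30 pairs, -0.189 to 0.399), and 9 of 15 libraries correlated best with their own number. At DC 8 h against unstimulated cells, the count was 1 (Lta) with library size alone, no filter, DESeq2, only the groups compared, or thinned counts. The main fit called 739 of 10831 genes there, library size alone 1079 and DESeq2 1175. With no filter it was 1129 of 17123, and with only the groups compared 827 of 9920. Totals of the other settings are not given here. At IF 22 h it was 1 (Ltb) with only the groups compared. At DC 22 h it was 1 (Tnfsf8) with library size alone or DESeq2, and 1 (Tnf) without both DC replicates 2. For IF against DC at 22 h it was 1 with no filter (Ifng, adjusted p = 0.00492, though the groups overlap), 1 with DESeq2 (Tnfsf8), 0 to 1 leaving out single libraries, and 2 without both DC replicates 2 (Tnf and Ltb). Tnfsf8 passed without IF 22 h replicate 1 (adjusted p = 0.0299). For the mean of the stimulated groups it was 1 (Tgfb1) with no filter, DESeq2 or thinned counts, 0 to 1 leaving out single libraries, and 2 (Ifng and Tgfb1) without both DC replicates 2. Over the 5 groups it was 2 with no filter (Ifng and Lta), 2 with DESeq2 (Lta and Tnfsf8), and 3 without both DC replicates 2 (Tnf, Ltb and Il16). The cause was not tested.

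Of 510 alternative values for 33 results of single genes, 467 kept direction and side of the threshold, 22 newly passed and 21 changed sign. Library size alone moved the median log2 change of all genes to 0.26, 0.3, 0.22 and 0.37 (IF 8 h, DC 8 h, IF 22 h, DC 22 h), and changes below are not corrected for that shift. With it the sign turned for Il16 at IF 8 h (0.12), Ifng (0.0302) and Ltb (0.0821) at DC 8 h, Ltb at DC 22 h (0.23) and Ifng in the mean of the stimulated groups (0.0599). Without both DC replicates 2 it turned for Ifng (-1.59) and Ltb (0.18) at DC 22 h, Ifng between IF and DC at 8 h (0.95) and 22 h (0.95), and Il16 between IF and DC at 22 h (-0.0216). Leaving out single libraries, Ifng ranged from -1.75 to 0.22 at DC 8 h, -1.59 to 1.38 at DC 22 h, -1.13 to 0.95 and -2.02 to 0.95 between IF and DC at 8 h and 22 h, and -0.82 to 0.22 in the mean. Ltb ranged from -0.37 to 0.18 and Il16 from -0.0286 to 0.41 at DC 22 h, and Il16 from -0.0211 to 0.40 between IF and DC at 22 h. A group left with 1 library is assumed to vary like the others. Leaving out both DC replicates 2, and the mean of the stimulated groups, were chosen after seeing the data, the former from the values of Ifng, Tnf and Lta, so calls without them are no evidence. With a mean of at least 10 CPM, Lta, Tnfsf8, Tnfsf11, Tnfsf14 and Tgfb1 were not tested and gave no value. Depth limits Csf2, which the filter left out and which had an adjusted p of at least 0.412 with no filter.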
